A study of Mus musculus with 4 samples.

Results

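The proteases and protease inhibitors of splenic Esam dendritic cells (DC) were measured in mice with and without the transcription factor Runx3 in their DC. The set holds 40 genes chosen by name: 13 cathepsins with legumain, 10 inhibitors (serpins, cystatins and TIMPs), 8 metalloproteases (ADAM genes and Mmp9) and 9 other peptidases. All 40 had exactly 1 probe set carrying their symbol alone. Of these, 36 reached a log2 value of 6.5, the limit for signal above background in the study's methods, on at least 1 array, among 9894 genes that did so in all. The tested members were 11 cathepsins with legumain, 8 inhibitors, 8 metalloproteases and 9 peptidases.

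RNA came from 4 mice, 6 weeks old, 1 array per mouse. The 2 cKO mice (genotype DCRunx3 -/-) carried floxed Runx3 alleles (Runx3fl/fl) and Cre under the CD11c promoter, which is active in DC and also in some macrophages. The 2 wt mice (DCRunx3 +/+) were their littermates, 1 of each genotype in each of 2 litters. Whether the wt mice carried the floxed alleles without Cre is not given in the labels. Cells were enriched from spleen on magnetic columns and sorted as the Esam population of CD11c+ MHC class II+ cells by Esam, CD4 and CD8. Values are log2 RMA values (RMA is the summary of the probes of a probe set after background correction and normalization between arrays), differences are cKO minus wt on that scale, errors are SD with n = 2, and intervals are 95% intervals from limma.

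DC take up proteins and cut them into peptides in acidic compartments. Cathepsins are the proteases of these compartments, and they also trim the invariant chain that holds the MHC class II groove closed. Cystatins block cysteine cathepsins, intracellular serpins trap serine proteases that leak into the cytosol, and TIMPs block metalloproteases. ADAM proteases release the outer parts of membrane proteins, while peptidases on the cell surface and in the cytosol shorten peptides from their ends.

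The targeted gene did not check the labels: the Runx3 probe set was at 11.47 and 11.45 in cKO and at 11.37 and 11.51 in wt, and no source used here says whether it lies in the deleted part. The labels call all 4 mice male, but Xist was at 12.78 (cKO) and 12.75 (wt) in litter 1 and at 5.19 (cKO) and 5.15 (wt) in litter 2, so both arrays of litter 1 went against the label, and the main differences are also given within each litter. Members differed by a median of 0.06 between the 2 cKO arrays and of 0.19 between the 2 wt arrays. The Esam DC markers fixed for the gate were all above the limit on each array, among them Itgax at 12.99 to 13.12, Cd4 at 11.64 to 12.09 and Esam at 10.10 to 10.64.

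Between the genotypes, 30 of 36 members were under 1.5-fold apart, and for 20 of 36 the interval also stayed inside 1.5-fold in both directions. Over all tested probe sets, 3.41% were at least 1.5-fold apart. Members at 1.5-fold or more and higher in cKO were the peptidase gene Ace (4.08-fold), the serpin gene Serpinb10 (3.94-fold), the metalloprotease gene Adamdec1 (2.96-fold) and the inhibitor gene Timp2 (1.74-fold). Those lower in cKO were the sheddase gene Adam8 and the cystatin gene Cst7, with wt 1.57-fold and 1.70-fold above cKO. In a bulk sample, fewer cells of a type and less RNA per cell cannot be told apart.

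No member differed between the genotypes at an adjusted p under 0.05 over all 18889 tested probe sets (limma, Benjamini-Hochberg, background 0.0%), where the smallest adjusted p among members was 0.158. An unadjusted p under 0.05 in limma was reached by 11 of 36 members, 9 higher and 2 lower in cKO, against 9.38% of all tested probe sets (4.57% higher and 4.81% lower). The one-way test of the methods, once adjusted by Benjamini-Hochberg, also called 0 members (background 0.0%). The study's thresholds ask for 1.5-fold or more in either direction and for a one-way p of 0.05 or less before adjustment. They were passed by 4 members, against a background of 1.41% (1.85% with 1 probe set per gene). These were Ace, Serpinb10 and Adamdec1, higher in cKO (background for higher 0.9%), and Adam8, lower in cKO (background for lower 0.514%). When limma was fitted on 1 probe set per gene, with the adjustment over 9894 genes, Serpinb10 and Adamdec1 passed at an adjusted p of 0.0345 each (background 0.424%, with 0.344% higher and 0.0809% lower) and Ace was at 0.0587. With the litter as a block in that fit, 7 members passed (background 4.13%). Of these, Ace, Serpinb10, Adamdec1, Timp2 and Ctsl were higher (background 2.91%) and Adam8 and Cst7 lower in cKO (background 1.22%). Regardless of any test, 6 members were at least 1.5-fold apart, against 3.41% of all tested probe sets. The members were chosen with earlier results of these data known, so counts set against these backgrounds are a description only.

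With 1 array left out the one-way test keeps 1 residual degree of freedom, and the calls at the study's thresholds moved. They numbered 3 without wt replicate 1 (Serpinb10, Adamdec1 and Serpinb9, background 1.49%) and 4 without wt replicate 2 (Serpinb10, Adamdec1, Adam8 and Timp2, background 0.905%). They numbered 0 without cKO replicate 1 (background 0.604%) or without cKO replicate 2 (background 0.598%). Ace thus lost its call whichever array was left out, with a difference that stayed between 1.72 and 2.34. Exact permutation of 2 arrays against 2 cannot give a two-sided p below 0.333, so no such test was run for single genes.

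**Figure D1:**
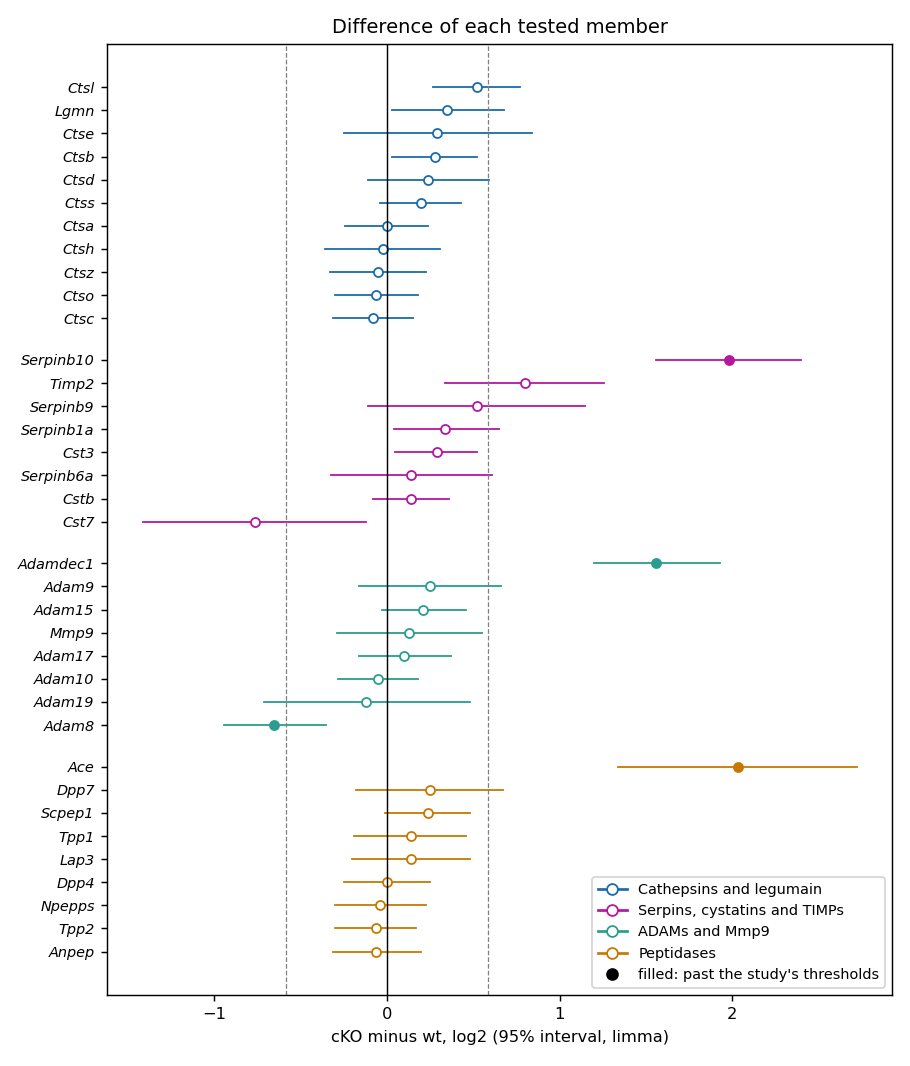
Difference between cKO and wt (x axis, log2) of each of the 36 tested members with its 95% interval from limma, grouped by kind and ordered by size within a group. Filled points passed the study's thresholds, dashed lines mark 1.5-fold in either direction, and the widest differences belong to Ace (2.03), Serpinb10 (1.98) and Adamdec1 (1.56).

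Runx proteins bind the hexamer TGTGGT. The windows around the start sites of the members past the study's thresholds are therefore printed from RefSeq (GRCm38.p6), with Cst7, the inhibitor that ran the other way, as a member that holds the hexamer. Each window runs from 250 bases before to 50 bases after the start, 5′ to 3′, in lower case with any TGTGGT or its reverse complement ACCACA in capitals. The table of promoters has no entry for Adamdec1 and 2 windows for Ace, of which the upstream one is shown. Neither Ace window holds the hexamer.
Serpinb10, chr1:107528753-107529052, plus strand: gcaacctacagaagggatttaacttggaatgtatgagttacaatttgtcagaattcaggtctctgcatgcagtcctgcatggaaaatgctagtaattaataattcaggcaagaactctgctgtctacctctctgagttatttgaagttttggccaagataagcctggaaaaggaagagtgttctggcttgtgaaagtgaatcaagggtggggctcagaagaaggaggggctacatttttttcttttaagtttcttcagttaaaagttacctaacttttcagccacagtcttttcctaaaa
Ace, chr11:105967698-105967997, plus strand: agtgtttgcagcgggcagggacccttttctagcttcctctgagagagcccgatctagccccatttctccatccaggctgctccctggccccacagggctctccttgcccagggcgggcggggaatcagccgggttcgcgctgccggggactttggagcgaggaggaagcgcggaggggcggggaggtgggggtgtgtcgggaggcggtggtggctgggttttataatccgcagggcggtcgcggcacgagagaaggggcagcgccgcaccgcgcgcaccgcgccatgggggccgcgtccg
Adam8, chr7:139992513-139992812, minus strand: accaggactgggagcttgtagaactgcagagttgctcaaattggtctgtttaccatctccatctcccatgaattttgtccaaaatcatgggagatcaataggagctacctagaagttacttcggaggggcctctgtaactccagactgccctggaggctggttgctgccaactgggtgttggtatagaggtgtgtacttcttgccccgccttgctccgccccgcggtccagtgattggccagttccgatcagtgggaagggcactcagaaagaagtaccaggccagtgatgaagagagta
Cst7, chr2:150570165-150570464, plus strand: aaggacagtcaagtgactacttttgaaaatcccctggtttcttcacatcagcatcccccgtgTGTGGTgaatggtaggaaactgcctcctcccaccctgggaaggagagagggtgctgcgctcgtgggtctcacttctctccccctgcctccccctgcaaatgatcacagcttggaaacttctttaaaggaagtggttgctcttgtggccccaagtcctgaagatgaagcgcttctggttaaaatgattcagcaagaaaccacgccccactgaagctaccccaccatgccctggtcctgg
The hexamer stood in the window of Cst7, 188 bases before the start, and was not among the letters of the windows of Serpinb10, Ace and Adam8. Of 31 members with a window, 7 held it in at least 1 window (22.6%), namely Cst7, Serpinb9, Lgmn, Adam15, Adam19, Anpep and Ctsa, against 18.9% of all 27025 genes in the table. Both strands were searched. A match is a description of the sequence only.

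Among the inhibitors, Serpinb10 stood apart. Serpinb10 (in human, bomapin) is an intracellular serpin of blood-forming cells, and its probe set was at 12.78 and 12.68 in cKO and at 10.93 and 10.57 in wt. The 2 cKO arrays lay within 0.10 of each other and well above both wt arrays. The mean was 12.73 ± 0.07 in cKO and 10.75 ± 0.26 in wt, a 3.94-fold difference (1.98, interval 1.56 to 2.40, adjusted p = 0.158). It was 1.85 within litter 1 and 2.11 within litter 2.

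Timp2, an inhibitor of matrix metalloproteases, was at 7.90 and 7.95 in cKO and at 6.92 and 7.35 in wt. The groups did not overlap, and the difference of 0.80 (standard error 0.17, adjusted p = 0.340) amounted to 0.99 in litter 1 and 0.61 in litter 2. Timp2 exceeded 1.5-fold but did not pass the study's thresholds. Serpinb9, which blocks granzyme B, was at 9.17 and 9.10 in cKO and at 8.92 and 8.30 in wt, with a wt spread (SD 0.44) close to the difference of 0.52 (interval -0.11 to 1.15). Most of that difference came from litter 2 (0.80, against 0.24 in litter 1).

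Cst7 was the only one of the 8 tested inhibitors of the set that was lower in cKO. It encodes cystatin F, which enters lysosomes and restrains cathepsin C, and it was at 6.92 and 6.40 in cKO and at 7.62 and 7.22 in wt. The groups did not overlap, although 1 cKO array was under the limit of 6.5. The difference was -0.76 (standard error 0.24, adjusted p = 0.475), with -0.71 in litter 1 and -0.82 in litter 2. With the litter as a block, Cst7 passed the study's thresholds and Adam8 and Adamdec1 no longer did, which left 3 calls, against a background of 0.715%. Its target Ctsc, which activates serine proteases of granules, was at 11.76 and 11.78 in cKO and at 11.82 and 11.88 in wt (difference -0.08, interval -0.31 to 0.15).

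Cst3 encodes cystatin C, a secreted inhibitor of cysteine cathepsins. It was at 13.33 and 13.41 in cKO and at 13.09 and 13.07 in wt, a difference of 0.29 (interval 0.05 to 0.52, adjusted p = 0.463) that was 0.24 in litter 1 and 0.33 in litter 2. The cKO arrays were higher without overlap, by less than 1.5-fold. Serpinb1a, an inhibitor of neutrophil elastase and cathepsin G, was at 7.56 and 7.34 in cKO and at 7.13 and 7.09 in wt (difference 0.34, interval 0.04 to 0.65, adjusted p = 0.487). The cytosolic cystatin gene Cstb differed by 0.14 (interval -0.08 to 0.36) and Serpinb6a, whose human counterpart inhibits cathepsin G, by 0.14 (interval -0.32 to 0.61). Serping1, the C1 inhibitor gene, lay between 5.27 and 5.54 and Timp1 between 4.98 and 5.26 on the 4 arrays, under the limit throughout, and neither was tested. Over the 8 tested inhibitors, 7 were higher and 1 lower, with a median difference of 0.31 against -0.02 over all tested probe sets. The median was 0.24 within litter 1 and 0.29 within litter 2.

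Serpinb10 lies on chromosome 1 in a cluster of related genes, and its neighbours were read after their values had been seen. In RefSeq order, Serpinb7, Serpinb2, Serpinb10 and Serpinb8 follow each other. Serpinb2 (plasminogen activator inhibitor 2) was at 10.14 and 9.89 in cKO and at 9.58 and 8.91 in wt (difference 0.77, adjusted p = 0.504). Serpinb7 was at 6.97 and 7.14 in cKO and at 6.68 and 6.40 in wt (difference 0.52, adjusted p = 0.429). Serpinb8 was at 6.10 and 6.36 in cKO and at 5.51 and 5.43 in wt, under the limit on all 4 arrays and not tested. In these 4 genes the cKO arrays lay above the wt arrays, which also held for 16.4% of all tested probe sets, and none but Serpinb10 passed the study's thresholds. On the far side of Serpinb7 the gene Serpinb11 was at or under 5.08 on all arrays, and on the far side of Serpinb8 the cadherin gene Cdh7 was between 4.83 and 4.94. Of the Serpinb genes on chromosome 13, Serpinb6b was at 11.09 and 11.17 in cKO and at 10.80 and 10.07 in wt (difference 0.69, standard error 0.27, adjusted p = 0.546).

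**Figure D2:**
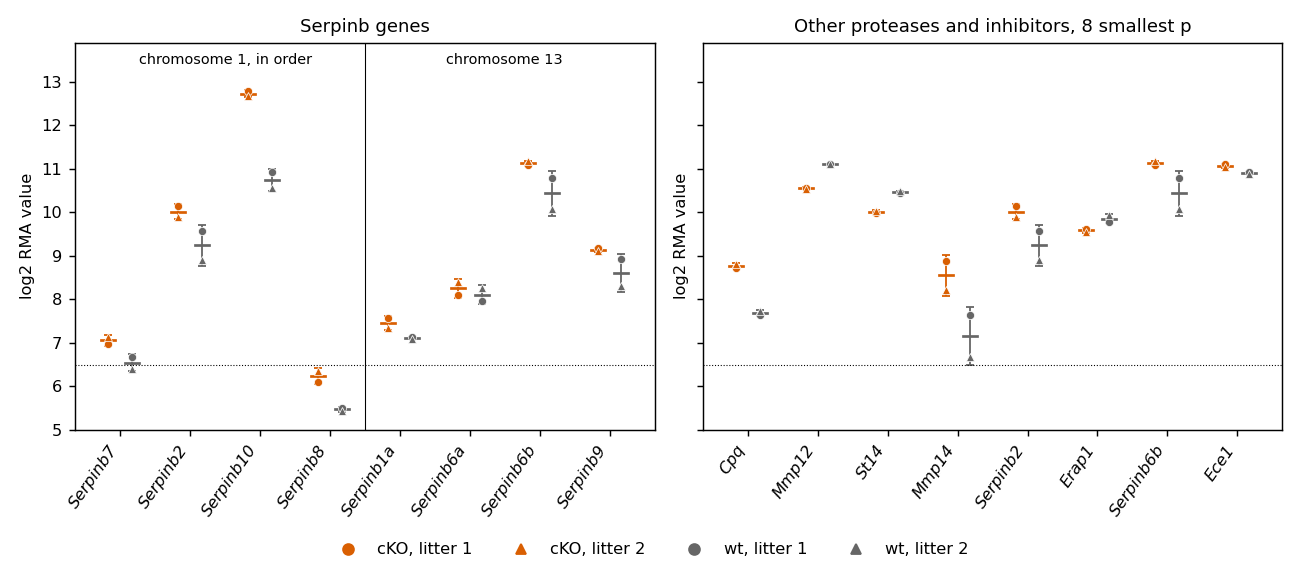
Log2 RMA values of 8 Serpinb genes (left) and of 8 other proteases and inhibitors with the smallest unadjusted p (right), with orange for cKO, grey for wt, circles for litter 1, triangles for litter 2, and bars for the mean and SD of 2 arrays; the dotted line is the limit of 6.5. Serpinb10 is at 12.78 and 12.68 in cKO and at 10.93 and 10.57 in wt, and the other genes of its cluster are spaced less widely.

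Of the metalloproteases, Adamdec1 had the widest difference. Adamdec1 is a secreted relative of the ADAM proteases, known in human from macrophages and DC. Its values were 10.06 and 10.10 in cKO and 8.36 and 8.67 in wt, so that the cKO arrays lay 0.04 apart and above both wt arrays. The 2.96-fold difference (1.56, interval 1.20 to 1.93, adjusted p = 0.158) was 1.69 in litter 1 and 1.43 in litter 2. Its neighbours in RefSeq order, Adam7 and Adam28, were between 5.02 and 5.49 on all arrays, under the limit, as was read after the values had been seen.

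Adam8 ran the other way. Adam8 is a membrane-bound protease of leukocytes that sheds surface proteins such as the IgE receptor CD23, and it was at 10.41 and 10.43 in cKO and at 11.17 and 10.97 in wt. Both cKO arrays were lower than both wt arrays, with wt 1.57-fold above cKO (difference -0.65, interval -0.94 to -0.35, adjusted p = 0.256). Within litters the difference was -0.76 and -0.53.

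The sheddases with the broadest known substrates were close between genotypes. Adam10, which cleaves Notch receptors, was at 10.21 and 10.20 in cKO and at 10.29 and 10.23 in wt (difference -0.05, interval -0.28 to 0.18). Adam17, the enzyme that releases TNF, was at 11.23 and 11.25 in cKO and at 11.21 and 11.06 in wt (difference 0.10, interval -0.16 to 0.37). For both, a difference of 1.5-fold lies outside the interval. Adam15 was at 8.06 and 8.12 in cKO and at 7.83 and 7.92 in wt (difference 0.21, adjusted p = 0.575), and Adam9 was at 10.17 and 10.12 in cKO and at 10.08 and 9.72 in wt (difference 0.25, or 0.07 to 0.43 with 1 array left out, adjusted p = 0.716). Adam19 split by litter more than by genotype, with 10.69 (cKO) and 10.77 (wt) in litter 1 and 11.07 (cKO) and 11.22 (wt) in litter 2. Mmp9, the gelatinase B gene, differed by 0.31 in litter 1 and -0.05 in litter 2. Over the 8 metalloproteases the median difference was 0.12, with 5 higher and 3 lower. Leaving out wt replicate 1 gave 0.07, and the litters gave 0.06 and 0.08.

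Among the peptidases, Ace carried nearly all of the difference. Ace encodes angiotensin-converting enzyme, a surface peptidase that removes dipeptides from the ends of peptides, and it was at 10.21 and 10.83 in cKO and at 8.34 and 8.65 in wt. The groups were more than 1.5 apart at their closest, and in each group the litter 2 array was the higher. The mean was 10.52 ± 0.44 in cKO and 8.49 ± 0.22 in wt, a 4.08-fold difference (2.03, interval 1.34 to 2.72, adjusted p = 0.209), with 1.87 in litter 1 and 2.19 in litter 2. Ace also stands on the list of blood monocyte markers. The other 7 tested genes of that list were all higher in cKO (background 44.9%), with Ccr2 above the limit on cKO arrays only. Their part in the difference of Ace was not tested.

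The other surface peptidases were at nearly the same level in both genotypes. Anpep (aminopeptidase N, CD13) was at 12.78 and 12.76 in cKO and at 12.89 and 12.76 in wt, and Dpp4 (CD26, which cuts behind proline) at 12.74 and 12.74 in cKO and at 12.80 and 12.67 in wt. Their differences of -0.06 (interval -0.31 to 0.20) and 0.00 (interval -0.25 to 0.25) leave out 1.5-fold in both directions. The cytosolic peptidases Tpp2 and Npepps (puromycin-sensitive aminopeptidase) differed by -0.06 (interval -0.30 to 0.17) and -0.04 (interval -0.30 to 0.23). Lap3, a leucine aminopeptidase, was at 8.94 and 8.82 in cKO and at 8.87 and 8.62 in wt (difference 0.14). Of the lysosomal exopeptidases, Scpep1, a serine carboxypeptidase, was at 11.07 and 11.12 in cKO and at 10.91 and 10.81 in wt (difference 0.24, adjusted p = 0.544). Dpp7 was at 8.90 and 9.22 in cKO and at 8.71 and 8.92 in wt (difference 0.25, or 0.08 to 0.41 with 1 array left out, adjusted p = 0.731), and Tpp1 at 10.13 and 10.23 in cKO and at 10.16 and 9.92 in wt, with overlap. The median over the 9 peptidases was 0.14, with 6 higher and 3 lower. That median became 0.02 when wt replicate 2 was left out and 0.08 when either cKO array was left out, and it was -0.03 in litter 1 and 0.21 in litter 2.

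**Figure D3:**
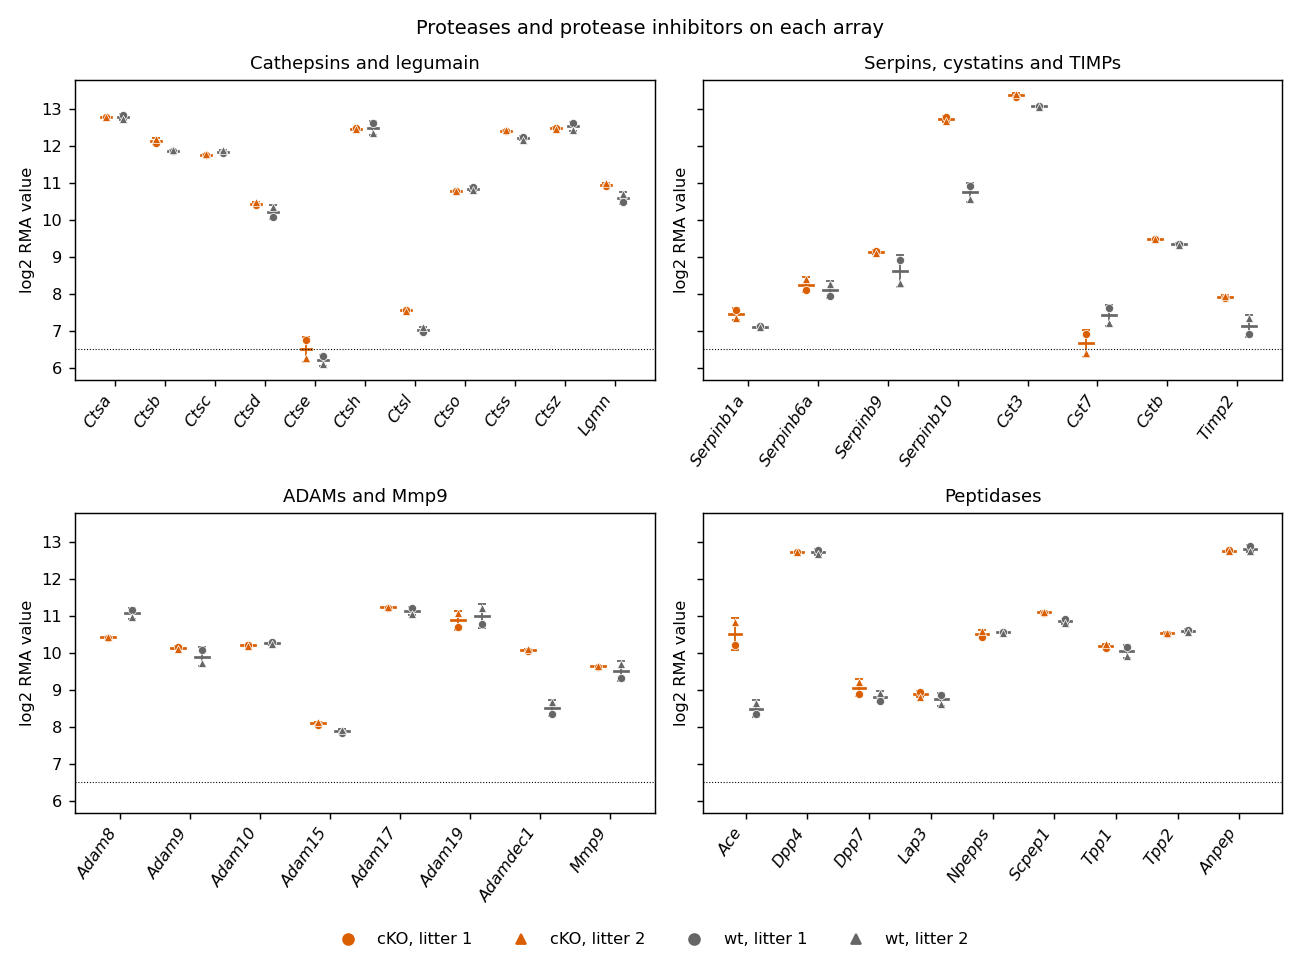
Log2 RMA values (y axis) of the 36 tested members on each of the 4 arrays, in 4 panels by kind, with orange for cKO, grey for wt, circles for litter 1, triangles for litter 2, and bars for the mean and SD of 2 arrays. Ace, Serpinb10, Adamdec1 and Timp2 are higher in cKO by 1.5-fold or more and Adam8 and Cst7 lower by as much. Most cathepsins sit at nearly the same height in both genotypes, and the dotted line is the limit of 6.5.

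No cathepsin passed the study's thresholds, and none reached 1.5-fold. Ctsl, a cysteine endopeptidase that processes the invariant chain in thymic epithelium, had the widest difference. It was at 7.56 and 7.54 in cKO and at 6.97 and 7.09 in wt, a difference of 0.52 (interval 0.27 to 0.77, adjusted p = 0.275) that was 0.59 in litter 1 and 0.45 in litter 2. Lgmn, the asparaginyl endopeptidase that activates several cathepsins, was at 10.91 and 10.99 in cKO and at 10.48 and 10.71 in wt (difference 0.35, interval 0.03 to 0.68, adjusted p = 0.494). Ctsb was at 12.09 and 12.20 in cKO and at 11.86 and 11.88 in wt (difference 0.28, interval 0.03 to 0.52, adjusted p = 0.491). In these 3 genes the cKO arrays were higher without overlap, which also held for 16.4% of all tested probe sets.

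Ctss is the main protease of the invariant chain in B cells and DC. It was at 12.40 and 12.43 in cKO and at 12.25 and 12.17 in wt, a difference of 0.20 (interval -0.04 to 0.43, adjusted p = 0.596) with no overlap. The aspartic protease gene Ctsd was at 10.40 and 10.48 in cKO and at 10.07 and 10.34 in wt (difference 0.24, interval -0.11 to 0.59). The other aspartic protease, Ctse, reached the limit only through 1 cKO array (6.74 and 6.25 in cKO, 6.31 and 6.09 in wt), and its difference of 0.29 is a description only.

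The remaining cathepsins had differences near 0. Ctsa, a serine carboxypeptidase that protects lysosomal enzymes, was at 12.79 and 12.79 in cKO and at 12.84 and 12.73 in wt. Ctsz, a carboxypeptidase, was at 12.50 and 12.46 in cKO and at 12.62 and 12.44 in wt, and the aminopeptidase Ctsh at 12.49 and 12.46 in cKO and at 12.63 and 12.36 in wt. For Ctsa, Ctsz, Ctsh, Ctsc, Ctso and Ctss the 95% interval held 0 and stayed inside 1.5-fold in both directions. Ctso differed by -0.06 (interval -0.30 to 0.18). Ctsf lay between 5.30 and 5.45 and the osteoclast collagenase gene Ctsk between 5.03 and 5.28, under the limit on all arrays. Over the 11 tested cathepsins the median difference was 0.20, with 6 higher and 5 lower. Without Ctse, which entered through 1 cKO array alone, it was 0.10 over 10 genes, with 5 higher and 5 lower. Over all 11, with Ctse kept, leaving out wt replicate 1 gave 0.11 and leaving out cKO replicate 1 gave 0.05. Each litter gave 0.14 over the same 11.

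Across all 36 tested members, 24 were higher (background 44.9%) and 12 lower in cKO, with a median difference of 0.14 against -0.02 over all tested probe sets. Without Ctse, 23 of 35 were higher and the median was again 0.14. The groups did not overlap for 17 members higher and 6 lower in cKO, 23 of 36, against 40.1% of all tested probe sets (16.4% higher and 23.7% lower) and 45.4% when each gene counts once. For 18 members the interval held 0 and left out 1.5-fold in both directions. The sign was the same in both litters for 29 members, against 57.7% of all tested probe sets, and the other 7 were under 1.5-fold in each litter. In litter 1 alone 5 members were at least 1.5-fold higher and 2 lower in cKO (background 2.36% and 2.83%), and in litter 2 alone 5 were higher and 1 lower (background 4.35% and 3.13%). The 4 members under the limit were in none of these counts.

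**Figure D4:**
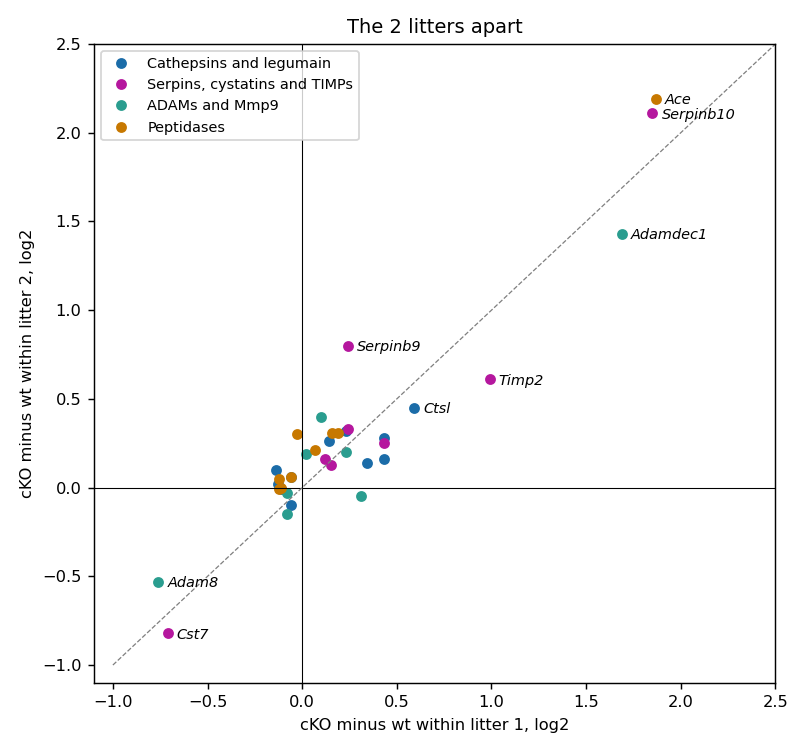
Difference between cKO and wt of each of the 36 tested members within litter 1 (x axis) and within litter 2 (y axis), both log2, coloured by kind, with a dashed line where the litters are equal. Ace (1.87 and 2.19), Serpinb10 (1.85 and 2.11) and Adamdec1 (1.69 and 1.43) are far from 0 in both litters. Nearer to 0, Timp2 (0.99 and 0.61) lies above it and Adam8 (-0.76 and -0.53) and Cst7 (-0.71 and -0.82) below it.

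A further 93 genes of the same families were listed. They were not picked for how they moved, but earlier results of these data were known when they were listed. Of these, 8 had no probe set of their own symbol, 44 were under the limit on all arrays and 41 were tested. At the study's thresholds 1 of the 41 was higher and none was lower in cKO (2.44%, against 1.41% of all tested probe sets), and the median difference was -0.03. An unadjusted p under 0.05 in limma was reached by 3 higher and 2 lower. The gene that passed was Cpq, a secreted carboxypeptidase, at 8.73 and 8.82 in cKO and at 7.64 and 7.74 in wt (difference 1.09, standard error 0.09, adjusted p = 0.158, or 0.0345 with 1 probe set per gene). Mmp12, the macrophage elastase gene, was at 10.57 and 10.54 in cKO and at 11.12 and 11.11 in wt (difference -0.56, adjusted p = 0.223), just short of 1.5-fold. St14, the membrane serine protease matriptase, was at 9.99 and 10.04 in cKO and at 10.44 and 10.49 in wt (difference -0.45, adjusted p = 0.296). With 1 probe set per gene and the litter block, 6 of the 41 passed at limma's adjusted threshold (background 4.13%). That setting was chosen after seeing the data. Cpq, Mmp14, Serpinb2 and Slpi were higher (background 2.91%) and Mmp12 and St14 lower in cKO (background 1.22%).

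The membrane metalloprotease gene Mmp14 was at 8.88 and 8.22 in cKO and at 7.63 and 6.68 in wt, with a wide spread in both groups. The difference was 1.40 (standard error 0.41, adjusted p = 0.460), with 1.25 in litter 1 and 1.55 in litter 2. In each group the litter 1 array was the higher. Erap1, which trims peptides for MHC class I in the endoplasmic reticulum, was at 9.62 and 9.55 in cKO and at 9.78 and 9.93 in wt (difference -0.27, adjusted p = 0.539). The endothelin-converting enzyme gene Ece1 was at 11.10 and 11.04 in cKO and at 10.92 and 10.88 in wt (difference 0.17, adjusted p = 0.643). In both genes the groups did not overlap, as in 40.1% of all tested probe sets. Napsa, an aspartic protease, was at 12.13 and 12.11 in cKO and at 12.27 and 12.17 in wt. Gzmb, which encodes the granzyme that Serpinb9 blocks, and the granzyme genes Gzma and Gzmk were under the limit on all arrays.

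Most tested markers of other cells that the gate could hold were higher in cKO, as were Ace, Serpinb10, Adamdec1 and Cpq. Over all tested probe sets, 44.9% were higher in cKO and 0.9% passed the study's thresholds as higher. Of 10 tested cDC1 markers, 8 were higher in cKO and 7 passed the study's thresholds, and their summed linear signal was 22330 to 23742 in cKO and 14768 to 15512 in wt. Batf3 and Wdfy4 were lower (-0.29 each). CD8 was among the markers of the sort, but the labels do not say which cells it left out, and Cd8a was at 10.63 and 10.88 in cKO and at 9.49 and 9.08 in wt. Of 12 tested macrophage markers, all 12 were higher and 2 passed, with a summed signal of 20567 to 22170 in cKO and 15082 to 17692 in wt. Fcgr1, a receptor gene of that list, was under the limit on all arrays, and Sirpa stands on both the macrophage and the Esam DC list.

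Without Ace, 7 of 7 tested monocyte markers were higher (background 44.9%), 2 of them past the thresholds (Treml4 and Ccr2, background 0.9%). Their summed signal was 15679 to 16231 in cKO and 10740 to 11293 in wt, while F13a1 was under the limit. Ccr2 was above the limit on cKO arrays only, and without it 6 of 6 were higher and 1 passed. Of 6 tested pDC markers 5 were higher and Bst2 was lower at -0.12 (summed signal 2486 to 2697 in cKO and 1578 to 1610 in wt). Of these, 1 passed the thresholds as higher (background 0.9%), Cox6a2, at 9.11 and 9.38 in cKO and at 6.36 and 6.77 in wt (difference 2.68). Of 3 tested B cell markers, 3 were higher and 0 passed (3008 to 3603 in cKO and 1928 to 2989 in wt), with Pax5 and Ebf1 under the limit. All markers of T and NK cells and of neutrophils that had a probe set were under the limit. Of the 9 markers of Esam DC, 6 were higher (background 44.9%) and 3 lower, 1 of them (Itgam, 0.75) past the thresholds (background 0.9%). Their summed signal was 34421 to 36218 in cKO and 32494 to 32564 in wt. The part of other cells in the differences of single proteases was not tested.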

How the data were processed

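RNA of sorted Esam DC from 2 cKO and 2 wt mice had been hybridized to 4 Affymetrix arrays. The methods name a mouse exon 1.0 ST array and the platform annotation a gene-level one, so no probe set is read as an exon. The authors deposited log2 values, summarized by RMA with a GC correction in Partek. The genome build in the submitters' notes is mm9. The 4 columns were matched to samples by accession, with none left over. Of 35399 probe sets, 21789 carried 1 symbol, 1621 several and 11989 none listed.

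Probe sets with log2 of at least 6.5 on 1 or more arrays (18889) were tested with limma 3.58.1 in R 4.3.3 (lmFit, eBayes, two-sided, cKO minus wt), with Benjamini-Hochberg adjustment over all of them, a threshold of 0.05 and a prior of 2.2 degrees of freedom beside 2 residual ones. The methods' one-way test with their thresholds was run beside it. Array medians lay between 6.58 and 6.62. The number of arrays limits the precision. Without a litter block, p-values refer to the spread between 2 mice per group, which came from different litters and differed in Xist. With the block, they refer to how far apart the differences within the 2 litters lay. Litter numbers come from the labels, and deviations from the group means correlated within litters (r = 0.27), so a litter block was an alternative.

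Members and lists were chosen with earlier results of these data known. Every member is named; values per array are given for up to 4 members of a group with the smallest unadjusted p, the 2 brightest of a group in wt and those past a call rule, and in part for others. Beyond that choice, levels of different probe sets were not set against each other. Scripts were tested on simulated data. Promoter windows are RefSeq GRCm38.p6; protein sequences were not used here.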

Additional observations from a re-analysis of the deposited data

How the results depend on the processing

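At the adjusted threshold of limma, 2 members passed with 1 probe set per gene (background 0.424%). With 1 probe set per gene and the litter block, a setting chosen after seeing the data, 7 passed (background 4.13%). In all other settings run, the litter block on all probe sets included, 0 passed. With all 4 arrays and the one-way p, calls at the study's thresholds were 3 with the litter block (background 0.715%) and 4 in the other settings. With limma's unadjusted p in its place the count was 6, the same members as those at least 1.5-fold apart. The share of all tested probe sets under that rule was not counted, and 3.41% of them were at least 1.5-fold apart. Members without overlap numbered 27 to 32 with 1 array left out, where 61.2% to 78.6% of all tested probe sets did not overlap, since a lone array overlaps less often. On all probe sets, the block added Cst7 to the calls at the study's thresholds, dropped Adam8 and Adamdec1, and changed no other call.

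Median differences without 1 array ran from 0.05 to 0.18 for cathepsins, 0.29 to 0.35 for inhibitors, 0.07 to 0.12 for metalloproteases and 0.02 to 0.14 for peptidases. With no filter on low values they were 0.10 for cathepsins and 0.21 for inhibitors, and with a limit of 7 the cathepsin median was 0.10, as it was with Ctse left out, a choice made after seeing the data. These settings change the genes counted. Within litter 1 alone, again chosen after seeing the data, the medians were 0.14, 0.24, 0.06 and -0.03 in the order above, and within litter 2 alone 0.14, 0.29, 0.08 and 0.21.

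Differences near 0 changed sign: Dpp4 was at -0.01 after a second quantile normalization and Ctsa at 0.01 with array medians centred. Without 1 array the ranges were -0.05 to 0.05 for Ctsa, -0.15 to 0.11 for Ctsh, -0.14 to 0.04 for Ctsz, -0.02 to 0.30 for Serpinb6a, -0.34 to 0.11 for Adam19, -0.06 to 0.32 for Mmp9, -0.06 to 0.07 for Dpp4, -0.12 to 0.04 for Npepps and -0.12 to 0.01 for Anpep. Without a change of sign, 1 array moved the uncalled differences of Adam9 (0.07 to 0.43), Dpp7 (0.08 to 0.41), Serpinb9 (0.21 to 0.83), Ctsd (0.10 to 0.38), Ctse (0.05 to 0.54), Lap3 and Tpp1 (0.02 to 0.26 each) and Adam17 (0.03 to 0.18) by over 1.5 times, and those of Adam10, Ctsc, Ctso and Tpp2, reported at under 0.1 in size, likewise. The cause was not tested. Each member had 1 probe set, so averaging probe sets changed nothing. Ace, Serpinb10, Adamdec1, Adam8, Cst7, Timp2 and Ctsl kept their direction in every setting run, as did other members, Ctsb, Lgmn, Cst3 and Adam15 among them.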
